A study of Mus musculus with 6 samples.

Results

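The acinar cells of salivary glands make most of the protein of saliva, and 10 genes named for such secreted proteins are described here in embryonic glands of the mouse: Bpifa2, Smgc, Pip, Lpo, Dcpp3, Cst10, Car6, Agr2, Amy1 and Esp8 (Entrez genes 19194, 223809, 18716, 76113, 620253, 58214, 12353, 23795, 11722 and 100126778). They were taken by name out of 19505 genes measured. They were chosen by the measured difference between the TGF-β1 and the control arrays in this table, so their values are given as a description, with no test. Each of the 10 had 1 probe set in the table. The 6 arrays came from salivary glands of embryos at a stage written as T13, 3 from glands treated with nothing (controls 1 to 3) and 3 from glands treated with TGF-β1 (TGF-β1 1 to 3), a secreted growth factor, all cultured for 72 hours. The study asked how the factor affects the glands. The strain, the type of salivary gland, the dose of TGF-β1 and whether replicates came from separate litters or cultures are not named in the labels. The p-values below therefore speak of the scatter of these arrays alone, part of which may come from handling.

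Acinar cells fill secretory granules with protein and release it into the duct when nerves stimulate them. Their products are made late in gland development, as end buds turn into acini, and different gland types and ages use different sets. Bpifa2, also known as parotid secretory protein, belongs to the BPI fold family of lipid-binding proteins. Smgc is a product of the young submandibular gland, Pip is the prolactin-inducible protein found in saliva and tears, and Lpo is the lactoperoxidase that forms antibacterial oxidants. Dcpp3 is of the demilune cell and parotid proteins, Cst10 is a cystatin, a family of inhibitors of cysteine proteases, and Car6 is the secreted carbonic anhydrase of saliva. Agr2 is a disulfide isomerase of the endoplasmic reticulum that mucus-making cells use, Amy1 is the amylase of saliva, and Esp8 is of the exocrine gland secreted peptides.

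The bases just before the start of transcription are shown for 6 of the genes. The secretory genes differ there in the exact letters TATAA, a form of a core promoter element. Other forms of that element were not searched for. Sequences are those of RefSeq on build GRCm38.p6, and each is the 60 bases before the annotated start, 5′ to 3′ on the strand of the gene, with the letters TATAA in capitals where they begin between 45 and 20 bases before the start.
Bpifa2, chr2:154008216-154008275, + strand: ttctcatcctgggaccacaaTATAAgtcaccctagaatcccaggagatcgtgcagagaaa
Smgc, chr15:91838268-91838327, + strand: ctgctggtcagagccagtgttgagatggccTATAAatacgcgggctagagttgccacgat
Pip, chr6:41847489-41847548, + strand: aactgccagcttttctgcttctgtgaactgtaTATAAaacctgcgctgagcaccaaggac
Dcpp3, chr17:23917398-23917457, + strand: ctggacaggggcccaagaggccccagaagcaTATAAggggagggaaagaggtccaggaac
Lpo, chr11:87826115-87826174, - strand: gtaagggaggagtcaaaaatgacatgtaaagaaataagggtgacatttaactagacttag
Esp8, chr17:40519962-40520021, + strand: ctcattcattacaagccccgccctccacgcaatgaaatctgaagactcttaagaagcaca

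All 10 genes matched the promoter table, Amy1 with 2 starts, which gave 11 windows. TATAA stood on the gene's own strand at this distance in 4 of the 11, those of Bpifa2, Smgc, Pip and Dcpp3, and in 3.89% of all 32851 windows of the table. Other short motifs were searched on both strands of the 250 bases before the start. CATATG, an E-box that the secretory factor Bhlha15 is known to bind, was in 0 of the 11 windows and in 3.46% of all. CAGCTG, another E-box, was in 1 of 11 (Car6) and in 13.0% of all. TGACGTG, part of a motif bound by factors of the unfolded protein response, was in 1 of 11 (Pip) and in 1.65% of all. CAGAC, which Smad proteins can bind, was in 2 of 11 (Car6 and Lpo) and in 42.2% of all. These are matches of letters in short windows. The Dcpp genes are close copies of each other: the longest identical run between the 250 bases before Dcpp3 and those before Dcpp2 was 143 bases, and 66 bases for Dcpp1. Whether the Dcpp3 probe set also takes up transcripts of its relatives was not tested, and Dcpp1 and Dcpp2 were not analysed here.

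Control 3 was unlike the rest. Its Pearson correlation with each other array over all genes was 0.550 to 0.601, while TGF-β1 3 correlated with controls 1 and 2 and TGF-β1 1 and 2 at 0.948 to 0.953, and these 4 with each other at 0.974 to 0.990. Actb, which encodes β-actin, was at 8.91 in control 3 and at 12.70 to 13.34 in the others on the deposited log2 scale, so each value of control 3 is given with that in view. Values below are log2 expression values, on which a step of 1 is a doubling; a difference is the TGF-β1 mean minus the control mean, with the standard error of limma's unweighted fit of all 6 arrays. In whole glands, more cells of a type and more transcript per cell cannot be told apart.

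For Bpifa2, Smgc, Pip, Lpo and Esp8, every TGF-β1 array lay above every control by more than 1 log2 unit. The largest difference was in Bpifa2. It was at 7.68, 4.65 and 6.22 in controls 1, 2 and 3, whereas TGF-β1 1, 2 and 3 had values of 13.49, 12.99 and 13.79. The groups lay 5.30 apart at their nearest values, and the means were 6.19 ± 1.52 and 13.42 ± 0.41 (SD, n = 3 each), a difference of 7.24 ± 0.73 (SE), or 151-fold. Within its array the gene stood at percentile 64.5, 16.2 and 34.2 of all genes in the controls and at 99.8 or above in the TGF-β1 arrays. The TGF-β1 arrays were thus close together and the controls spread over 3.03 log2 units.

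Smgc was at 6.25, 4.60 and 5.65 in the controls and at 10.32, 8.87 and 11.44 in the TGF-β1 arrays. All TGF-β1 arrays were higher than all controls, by at least 2.63, and the difference was 4.71 ± 0.72 (SE). Smgc lies at the locus of the mucin gene Muc19, and the platform annotation pairs its probe set with a second transcript accession that the gene table does not hold under Smgc. Whether the probe set also takes up the mucin transcript was not tested.

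Pip was at 6.66, 5.70 and 6.40 in the controls and at 10.54, 9.39 and 12.20 in the TGF-β1 arrays. The groups did not overlap, TGF-β1 3 was the highest and TGF-β1 2 the lowest of its group, and the difference was 4.45 ± 0.71 (SE). Lpo had the order turned round. It was at 9.19, 6.61 and 7.98 in the controls and at 12.35, 12.48 and 11.21 in the TGF-β1 arrays, so that TGF-β1 3 was the lowest of its group, yet 2.02 above the highest control. Its difference was 4.09 ± 0.69 (SE).

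Esp8 had the smallest spread within the TGF-β1 group. It was at 5.46, 4.73 and 5.65 in the controls and at 7.998, 7.51 and 7.44 in the TGF-β1 arrays, a difference of 2.37 ± 0.38 (SE) with groups that lay 1.78 apart. Peptides of this family are known from the tear gland and salivary gland, where some act as signals between mice.

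**Figure D1:**
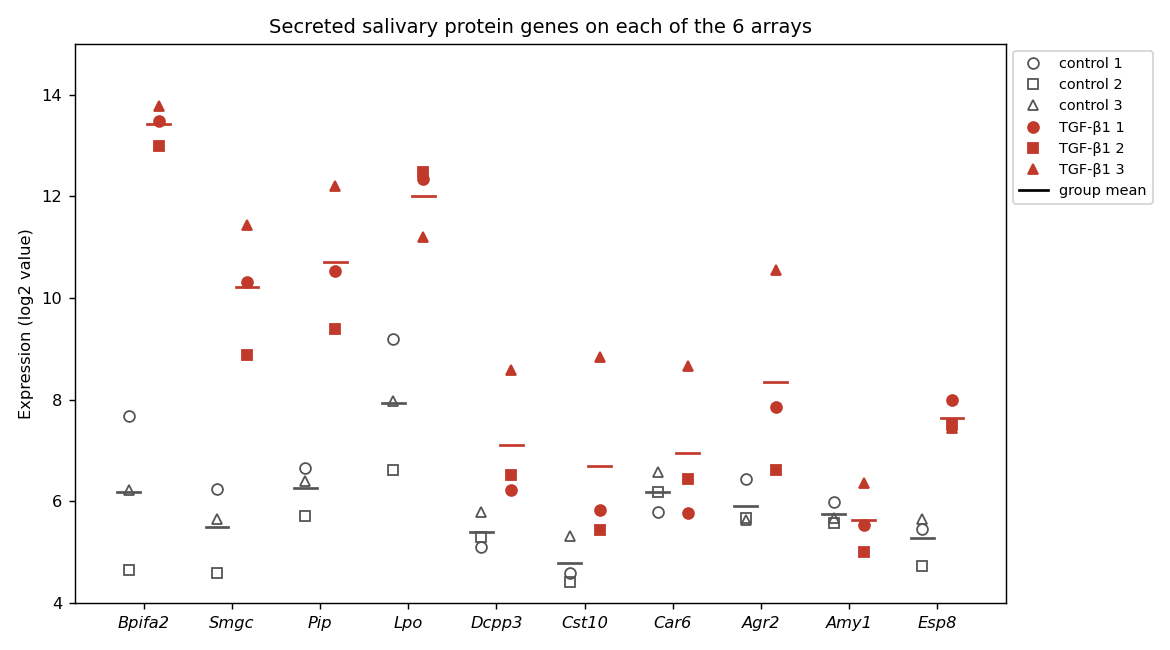
Expression of the 10 genes on each array (vertical axis, log2 value), with open grey symbols for controls, filled red symbols for TGF-β1 arrays, a symbol shape per replicate number and bars for the group means (n = 3 each). The groups lie more than 1 log2 unit apart in Bpifa2, Smgc, Pip, Lpo and Esp8. They lie 0.44, 0.12 and 0.18 apart in Dcpp3, Cst10 and Agr2, and overlap in Car6 and Amy1. The red triangles of TGF-β1 3 stand above all other arrays in 8 of the 10 genes, all but Lpo and Esp8.

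In 4 other genes TGF-β1 3 lay well above the mean of the other TGF-β1 arrays and raised the group mean. Without TGF-β1 3 the difference was 1.33 for Agr2, 0.85 for Cst10, 0.97 for Dcpp3 and -0.08 for Car6. Agr2 was at 6.45, 5.67 and 5.63 in the controls and at 7.86, 6.62 and 10.55 in the TGF-β1 arrays. TGF-β1 2 lay only 0.18 above control 1, and TGF-β1 3 lay 3.31 above the mean of the other TGF-β1 arrays. The difference of the means was 2.43 ± 0.93 (SE) with all arrays and 1.19 without control 3 and TGF-β1 3.

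Cst10 was at 4.60, 4.42 and 5.32 in the controls and at 5.82, 5.44 and 8.85 in the TGF-β1 arrays. TGF-β1 3 was 3.22 above the mean of its group's other arrays, and TGF-β1 2 was 0.12 above control 3. The difference was 1.92 ± 0.88 (SE) with all arrays and 1.12 without control 3 and TGF-β1 3. Cst10 is also known from maturing cartilage cells; the median of 8 cartilage markers was 5.84 in TGF-β1 3, and 6.58 and 6.47 in TGF-β1 1 and 2, while Cnmd, of that list, was at 9.66, 9.30 and 10.33 in TGF-β1 3, 1 and 2 and at 7.04, 6.04 and 6.40 in the controls. The part of cartilage cells in the Cst10 values was not tested.

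Dcpp3 was at 5.11, 5.30 and 5.78 in the controls and at 6.22, 6.53 and 8.59 in the TGF-β1 arrays. The groups did not overlap, but the gap was 0.44 and TGF-β1 3 was 2.22 above the mean of the other TGF-β1 arrays. The difference was 1.71 ± 0.64 (SE), and 1.17 without control 3 and TGF-β1 3.

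Car6 was at 5.78, 6.18 and 6.58 in the controls and at 5.76, 6.44 and 8.67 in the TGF-β1 arrays. TGF-β1 1 and 2 lay within or below the range of the controls, and TGF-β1 3 lay 2.56 above their mean. Its difference was 0.78 ± 0.73 (SE) with all arrays and 0.12 without control 3 and TGF-β1 3. On the log2 scale only TGF-β1 3 was above the control range, whose top was control 3.

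Amy1 did not separate the groups. It was at 5.99, 5.57 and 5.67 in the controls and at 5.52, 5.001 and 6.35 in the TGF-β1 arrays. TGF-β1 3 was again the highest array, TGF-β1 1 and 2 were the lowest on the log2 scale, and the difference was -0.12 ± 0.42 (SE). Whether its probe set tells Amy1 from the related pancreatic amylases was not tested.

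**Figure D2:**
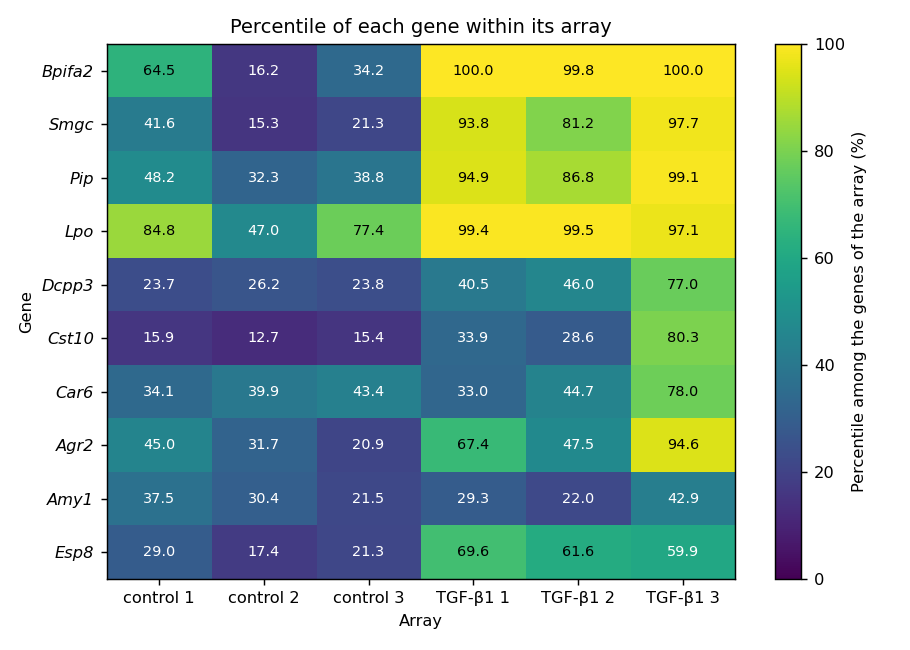
Percentile (colour and printed value, %) of each of the 10 genes (rows) among the 19505 genes of its array (columns), a measure that does not depend on the scale of an array. Bpifa2 stood at 16.2 to 64.5 in the controls and at 99.8 or above in the TGF-β1 arrays, and Cst10 at 12.7 to 15.9 in the controls, at 33.9 and 28.6 in TGF-β1 1 and 2 and at 80.3 in TGF-β1 3.

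Percentiles within each array do not change with the narrower distribution of control 3. By percentile the order of the arrays was much the same, but for the place of control 3. TGF-β1 2 then lay above all controls for Car6 (44.7, against 43.4 in control 3). Control 3 was lowest for Amy1 (21.5, against 22.0 in TGF-β1 2). Percentiles do not correct a changed order of genes within an array. Gapdh, a gene used by every cell, was at 6.21 in control 3, below that array's median of 6.80, and at 11.87 to 11.98 in the others. The rank of control 3 is therefore uncertain by either measure. Control 3 lay between controls 1 and 2 for Bpifa2, Smgc, Pip, Lpo and Esp8, on the log2 scale for the first 4 and by percentile for all of them. Of the 10 genes, 8, 10 and 9 lay below the array median in controls 1, 2 and 3, against 4, 5 and 1 in TGF-β1 1, 2 and 3. No measure of background is given in the table, and 2, 4 and 6 of the genes were below the lower quartile of controls 1, 2 and 3. The size of the differences is therefore uncertain for genes whose transcript those controls may not have held.

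The arrays of each group also differed from each other. The choice of genes used every array through the group means, so the counts below are not independent of it. Control 1 was above control 2 in 8 of the 10 genes, and in 47.6% of all genes. It was higher by more than 0.5 in 6 of the 10, Bpifa2 (3.03), Lpo (2.58), Smgc (1.65), Pip (0.96), Agr2 (0.78) and Esp8 (0.73), and in 4.21% of all genes. The median of this difference was 0.76 over the 10 genes and -0.01 over all genes. TGF-β1 1 was above TGF-β1 2 in 7 of the 10 genes and in 52.2% of all, with medians of 0.50 and 0.01.

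TGF-β1 3 was more than 1 log2 unit above both other TGF-β1 arrays in 6 of the 10 genes, namely Smgc, Pip, Dcpp3, Cst10, Car6 and Agr2, and in 5.54% of all genes. It was the highest of all 6 arrays in 8 of the 10, and in 19.1% of all genes. It was more than 1 below both in 1 of the 10, Lpo, and in 2.46% of all. The median of TGF-β1 3 minus the mean of TGF-β1 1 and 2 was 2.03 over the 10 genes and -0.02 over all. The choice of the 10 genes used the values of TGF-β1 3 as well, so all genes are not a fair baseline for these counts. Some markers of other cell types in the gland were also high on this array and others were low. The duct keratin Krt7 was at 11.47 in TGF-β1 3, 9.67 and 8.86 in TGF-β1 1 and 2 and 8.28 to 9.90 in the controls, and Krt19, another duct keratin, at 9.29 against 6.60 and 6.56, with 5.61 to 7.58 in the controls. Trp63, a factor of basal duct cells, was at 9.19 against 10.44 and 10.52. Of the 9 duct markers measured, 3 were more than 1 above both other TGF-β1 arrays, as were 3 of 8 myoepithelial markers and 3 of 9 immune markers. None of the 11 acinar markers was. Below the mean of TGF-β1 1 and 2 were 8 of the 11 acinar, 3 of the 9 duct, 4 of the 8 myoepithelial and 0 of the 9 immune markers, against 51.7% of all genes. The part of these cell types in the values of TGF-β1 3 was not tested.

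**Figure D3:**
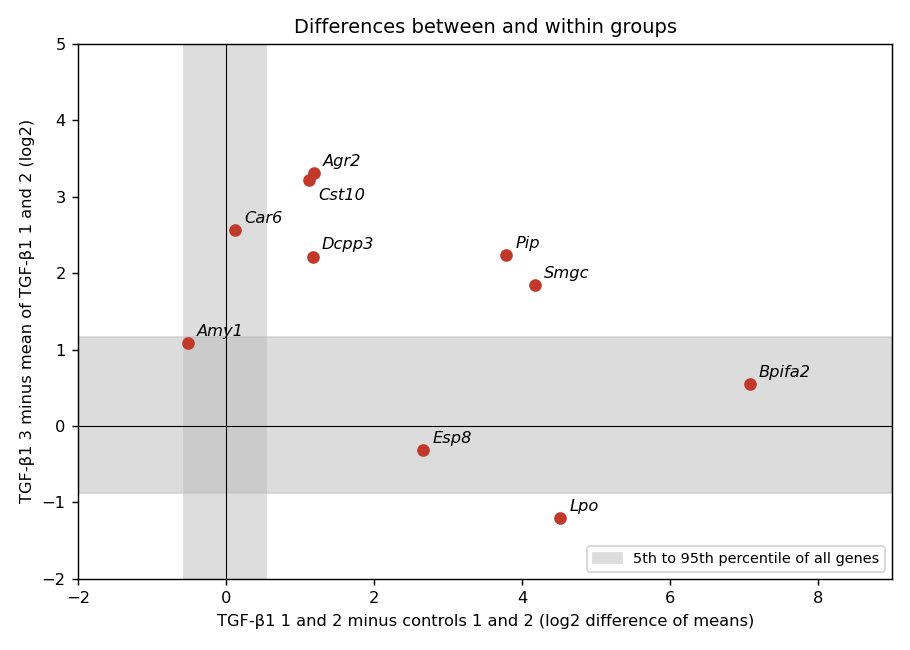
For each of the 10 genes, the mean of TGF-β1 1 and 2 minus the mean of controls 1 and 2 (horizontal axis, log2) and TGF-β1 3 minus the mean of TGF-β1 1 and 2 (vertical axis, log2); grey bands span the 5th to the 95th percentile of all 19505 genes on each axis. Bpifa2 lies far right (7.07) and near 0 vertically (0.55), Car6 near 0 horizontally (0.12) and at 2.56 vertically, and Lpo at 4.51 and -1.20.

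Without control 3 and TGF-β1 3, 8 of the 10 genes had both remaining TGF-β1 arrays above both remaining controls, as had 24.4% of all genes. The exceptions were Car6 and Amy1. With all arrays, the same number, 8 of 10, had every TGF-β1 array above every control, against 5.80% of all genes, 9 of the 10 had a difference above 0, against 40.5% of all genes, and the median difference was 2.40 over the 10 genes and -0.14 over all. These counts follow from how the genes were chosen. Limma's unweighted fit called 0 of 19505 genes at an adjusted p under 0.05 (0%), with 389 at an unadjusted p under 0.05. With each array weighted by its estimated reliability (0.0338 for control 3, 0.398 for TGF-β1 3 and 1.65 to 4.52 for the others) it called 1342 (6.88%), 3.45% higher and 3.44% lower, among them 8 of the 10 as higher. Without control 3 and TGF-β1 3 it called 505 (2.59%), 1.14% as higher and 1.45% as lower, among them 7 of the 10. Nothing is read from these counts of the 10 genes. For genes outside the 10, "rose" and "fell" below mean a pass in the fit with array weights.

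Relatives of the 10 genes by sequence family were counted next. Of 85 relatives listed, 74 were measured, and 2 rose and 2 fell (5.41%, against 6.88% of all genes); none passed without weights, and 1 passed without control 3 and TGF-β1 3. Of 16 relatives of Bpifa2 in the BPI fold family, 0 passed, and Bpifb5, which had the smallest p, differed by 0.60 ± 0.22 (SE, adjusted p = 0.140 in limma's array-weighted fit). Bpifa1, the member of the family known from the airway, was at 5.65, 5.58 and 5.14 in the TGF-β1 arrays and at 4.96, 5.52 and 7.32 in the controls.

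Of 12 other exocrine gland secreted peptides, 0 passed, and Esp18 differed by 0.94 ± 0.36 (SE, adjusted p = 0.157 in that fit). Of 8 other cystatins, 0 passed; Cst3, the widely secreted cystatin C, differed by -0.59 ± 0.22 (adjusted p = 0.144 in that fit). Of 4 PIP-like seminal vesicle antigens and 10 disulfide isomerases, 0 passed; Sval1 differed by -0.10 ± 0.14 and Pdia6 by 0.45 ± 0.19.

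The relatives that passed were carbonic anhydrases, a peroxidase and an amylase. Of 15 other carbonic anhydrases, 2 rose. Car12, a membrane enzyme, rose by 1.59 ± 0.25 (adjusted p = 0.0033 in limma's array-weighted fit), and Car8, a relative without enzyme activity, rose by 1.14 ± 0.22 (adjusted p = 0.0092). Car12 was at 8.09, 7.40 and 7.12 in the controls and at 9.20, 9.41 and 7.64 in the TGF-β1 arrays, so TGF-β1 3 lay below control 1. Without control 3 and TGF-β1 3, Car12 passed (adjusted p = 0.0274) and Car8 did not (adjusted p = 0.144). Of 5 other heme peroxidases, Ptgs2, the inducible prostaglandin synthase, fell by 1.31 ± 0.33 (adjusted p = 0.0376), and of 4 other amylases, Amy2b fell by 0.73 ± 0.18 (adjusted p = 0.0318). Neither passed without control 3 and TGF-β1 3 (adjusted p = 0.293 and 0.236).

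**Figure D4:**
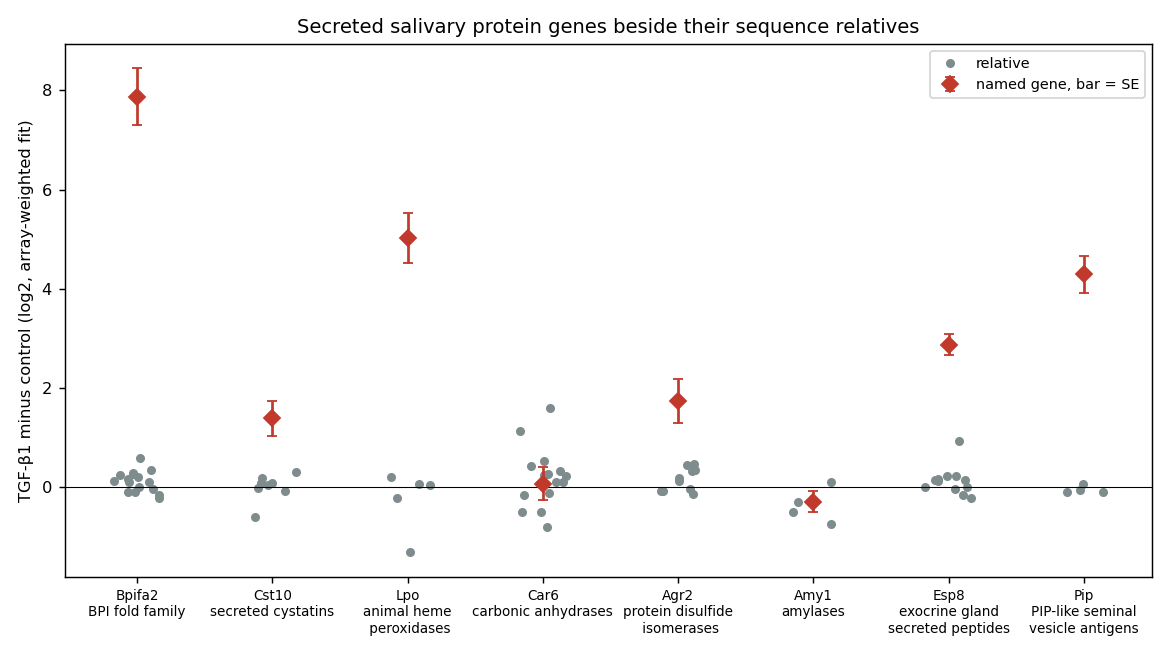
Difference between TGF-β1 and control arrays in the array-weighted fit (vertical axis, log2) for 8 of the 10 genes (red diamonds, bars are SE) beside their measured relatives (grey points, spread sideways to show them). The relatives of Bpifa2, Lpo, Pip and Esp8 lie between -1.31 (Ptgs2) and 0.94 (Esp18), below these genes, while Car6 and Amy1 lie among theirs.

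Among 28 other measured proteins of saliva, 3 rose and 0 fell. Wfdc18, a small protein with a protease inhibitor domain, was at 10.84, 10.04 and 6.92 in the controls and at 11.79, 11.95 and 13.09 in the TGF-β1 arrays, and rose by 1.68 ± 0.25 (adjusted p = 0.0029 in limma's array-weighted fit). Tcn2, which carries vitamin B12, rose by 0.98 ± 0.16 (adjusted p = 0.0046). Prol1, the precursor of a salivary mucin-type glycoprotein, was at 4.76, 4.50 and 6.41 in the controls and at 6.01, 9.27 and 10.04 in the TGF-β1 arrays. It rose by 2.74 ± 0.73 (adjusted p = 0.0462), did not pass when control 3 and TGF-β1 3 were left out (adjusted p = 0.138), and had TGF-β1 1 below control 3. Without those 2 arrays, Wfdc18 and Tcn2 passed as higher, and 2 others, Lcn2 and Clu, as lower.

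Of these 28 proteins, 8 were more than 1 log2 unit higher in TGF-β1 3 than in both other TGF-β1 arrays, as 5.54% of all genes were. They are named after their values were seen: Lcn2, Clu, Ltf, Wfdc12, Wfdc18, Wfdc2, Dmbt1 and Pigr. Lcn2, a protein of host defence that binds siderophores, was at 12.87 in TGF-β1 3, 8.44 and 8.37 in TGF-β1 1 and 2, and 11.18, 10.31 and 5.46 in the controls. Clu, an extracellular chaperone, was at 11.53, 9.16 and 9.21 in TGF-β1 3, 1 and 2 and at 10.09, 10.22 and 9.62 in the controls. Both thus lay above all controls in TGF-β1 3 and below them, control 3 aside for Lcn2, in the other TGF-β1 arrays. Of 13 products of the granular ducts, which mature after birth, 0 passed, and Klk1b11, a kallikrein, differed by -0.77 ± 0.33 (adjusted p = 0.206 in that fit).

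The genes were set beside 11 acinar markers that are not among them. In whole glands such values cannot show which cells made the transcripts. Of the 11 markers, 10 rose and 0 fell, against 3.45% and 3.44% of all genes. Without control 3 and TGF-β1 3, 7 passed as higher, against 1.14% of all genes. Several of the markers were known from earlier results on these arrays, so they are not independent evidence. Ano1, the chloride channel of acinar cells, was at 8.20, 8.001 and 8.80 in the controls and at 10.19, 10.46 and 9.45 in the TGF-β1 arrays. Bhlha15, a factor of secretory cells, was at 6.33, 5.77 and 6.43 in the controls and at 9.20, 8.21 and 9.27 in the TGF-β1 arrays, and Spdef, another such factor, at 7.61, 7.69 and 8.24 and at 9.76, 9.26 and 9.08. The list median was 9.45, 9.33 and 9.27 in the TGF-β1 arrays and 8.20, 8.001 and 7.55 in the controls. Within the TGF-β1 group Ano1 and Spdef were lowest in TGF-β1 3. Bhlha15 was highest there by little, at 9.27 against 9.20 in TGF-β1 1. The 10 genes other than Lpo and Esp8 were highest there too, 6 of them by more than 1 log2 unit. Of the 11 acinar markers, 8 lay below the mean of TGF-β1 1 and 2 in TGF-β1 3.

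Of 9 epithelial markers 2 rose, Cldn3, a tight junction protein, by 1.47 ± 0.19 and Epcam, an adhesion molecule, by 1.01 ± 0.20. The median of the epithelial list was 10.77, 10.11 and 7.52 in controls 1, 2 and 3, against 10.91, 10.75 and 10.50 in the TGF-β1 arrays. Control 2 was thus below control 1 in the epithelial median as well as in 8 of the 10 secretory genes. Of 8 neuronal markers 4 rose, among them Ret by 0.77 ± 0.14, of 8 myoepithelial 2 rose, of 8 cartilage 1 rose, of 8 endothelial and 10 mesenchymal 1 each fell, of 4 erythroid 2 fell, and of the duct, glial, immune, muscle and pancreatic acinar lists 0 passed. With control 3 and TGF-β1 3 left out, 1 epithelial (Cldn3, not Epcam, whose adjusted p in that limma fit was 0.124), 1 neuronal, 1 cartilage and 1 endothelial marker passed, and 0 myoepithelial, mesenchymal and erythroid markers. The median of the 7 pancreatic markers was 5.92 to 6.29 in the TGF-β1 arrays and 6.22, 6.33 and 7.81 in controls 1, 2 and 3. The part of the epithelial share of a gland in the values of the 10 genes was not tested.

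Genes outside the 10 were ranked by how near their profile over the 6 arrays lay to the median profile of the 10, as the mean absolute difference after each gene was centred on its own mean. Of 18534 genes ranked, the nearest was Creb3l4, a membrane-bound factor related to secretion, at 0.28, with values of 7.06, 6.50 and 6.57 in the controls and 9.81, 8.71 and 10.20 in the TGF-β1 arrays. Next were Bhlha15 at 0.32, Oit1 at 0.36, Lrrc26, an accessory subunit of a potassium channel, at 0.43, Pglyrp1, a secreted antibacterial protein, at 0.43, Ogn, a small matrix proteoglycan, at 0.46, Cthrc1, a secreted collagen-related protein, at 0.47, and Smim22 at 0.48. The 10 genes themselves lay at 0.51 (Agr2) to 2.24 (Bpifa2), and the median of all genes was 1.48. Without control 3, Oit1, Smim22 and Creb3l4 were nearest, and 7 of the 8 were among the first 8.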

How the data were processed

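Each deposited value is the log2 expression of a probe set, made by the authors with RMA from Affymetrix arrays per the submitters' processing notes, with no version given; per the labels, cRNA was made from 6 µg of total RNA. RMA subtracts background, normalizes between arrays and summarises probes. The values were used as deposited, although control 3 had an interquartile range of 2.05 against 3.17 to 3.26 in the others. Of 22206 probe sets, 19572 had 1 gene symbol, 0 had several and 2634 were unnamed here; the probe set of highest mean stood for a gene, which left 19505 genes. The number of arrays limits the precision.

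The 2 groups were fitted in R 4.3.3 with limma 3.58.1 (two-sided, Benjamini-Hochberg over all genes, adjusted p under 0.05), with array weights and without doubtful arrays as alternatives. The weights are treated as known, which makes the p-values of that fit too small. The genes and the lists were chosen with earlier results of these data known. Named from each list were up to 3 genes per direction that passed with array weights, or the gene of smallest p, and the 8 genes nearest in profile, leaving out predicted genes. Deviations of same-numbered arrays from their group means correlated at -0.07, -0.01 and -0.05. Control 3 shifts the deviations of all controls, so these values cannot decide whether the arrays were paired. Numbers were not treated as pairs. No genome build is named for the array; promoter sequences are those of RefSeq on GRCm38.p6.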

Additional observations from a re-analysis of the deposited data

How the results depend on the processing

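The count of genes passing was 0 in the unweighted fit of all arrays and with quantile normalization, median centring, the filter on dim genes (13003 kept), the mean of probe sets, every probe set on its own, a trended robust prior and each array left out in turn (range 0 to 0; 145 to 1487 at an unadjusted p under 0.05). It was 1342 with array weights, 505 when control 3 and TGF-β1 3 were both left out, and 544 without control 3 but with array weights. The related and other secreted genes that passed numbered 0 in the same fits as above (range 0 to 0 with an array left out) and 7, 5 and 3 in those last fits, in that order; the cause was not tested. With the replicate number as a block, 0 genes passed (322 at an unadjusted p under 0.05) and the block changed no call. The median difference of the 10 genes was 2.40, between 1.90 and 2.92 with an array left out, and 3.26 under the dim filter, which left out Cst10 and Amy1. Leaving out TGF-β1 3 gave the lowest value for Smgc (4.10), Pip (3.71), Dcpp3 (0.97), Cst10 (0.85) and Car6, which turned to -0.08. Amy1 lay between -0.52 and 0.20 over its 16 settings and was above 0 in 3. Some settings, such as the mean of probe sets, could not change the difference of a gene with 1 probe set. Esp8 was 2.88 with array weights, a move of more than its spread between replicates. With 3 arrays a group and no measure of background, small differences in dim genes cannot be resolved.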
